A study of Mus musculus with 12 samples.

Results

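A comparison of 6 libraries of mouse lung, 3 from mice given lipopolysaccharide together with bovine lactoferrin (LPS+bLF) and 3 from mice given bovine lactoferrin alone (bLF), measured the LPS difference when both sides had received lactoferrin. They were chosen by their titles and are 6 of the 12 libraries of the study, which also holds 3 control libraries and 3 libraries of mice given LPS alone. All mice were male BALB/c of 6 to 8 weeks. Per the labels, LPS was 50 µL at 1 µg/µL, lactoferrin was 200 mg/kg per day, and lung was taken for sequencing after 14 days of modelling from 3 of the 6 mice of each group. The control mice had neither agent, and the LPS mice had LPS without lactoferrin. The route of either agent and the day of LPS are not given in the sources used here. Each library is 1 mouse and whole lung tissue, so fewer cells of a type and less RNA per cell cannot be told apart.

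LPS is the outer-membrane glycolipid of Gram-negative bacteria. It is bound by Lbp, Cd14 and the Tlr4-Ly96 receptor, and signals through Myd88 and NF-kB to cytokine, chemokine and acute-phase genes, which bring neutrophils and then monocytes into the lung. Lactoferrin is an iron-binding glycoprotein of milk and neutrophil granules that also binds LPS and Cd14.

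Total counts of the 6 libraries ranged from 17270296 to 17820645, so that a gene with no reads could be present at up to 0.168 to 0.174 CPM, or 3 counts, by counting error alone. Markers of lung were abundant in all 6, with Sftpc of alveolar type 2 cells at 57738 to 130475 FPKM, Scgb1a1 of club cells at 143712 to 331490 FPKM and Ager of alveolar type 1 cells at 3705 to 7795 FPKM. FPKM values account for gene length and sequencing depth. Libraries of a group also differed in genes of tissues next to the lung. The summed FPKM of 20 tested brown fat genes reached 30525 in LPS+bLF replicate 2 and 8721 in bLF replicate 1, against 234 to 684 in the other 4, and that of 19 cardiac genes was 5834.5 and 6751 in the same libraries, against 215 to 556. The sum of 14 skeletal muscle genes was 8052 in LPS+bLF replicate 3 and at most 795 in the rest. That of 11 squamous epithelium genes was 1034.6 there and at most 257 elsewhere. This sum leaves out Krtdap, Krt4 and Krt13 of the same list, which reached 0.5 FPKM in too few libraries to be tested. They were at 1195, 335 and 253 FPKM in LPS+bLF replicate 3 and at most 0.32 FPKM in the rest of the 6. No tested member of these lists was at 0 in all 6 libraries, and the part of this tissue in the results below was not tested. Values given without a library leave out all that differs in that mouse, so they cannot single out adjacent tissue.

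No gene passed the test. The genes tested, 13735, were those that reached 0.5 FPKM in 3 or more of the 12 libraries. By edgeR's quasi-likelihood test with Benjamini-Hochberg adjustment, 0 of them (0%) had an adjusted p under 0.05, and the smallest adjusted p was 0.99968. At an unadjusted p under 0.05, 226 genes (1.65%) had a higher and 140 (1.02%) a lower mean in LPS+bLF. These counts were 503 and 347 without LPS replicate 1, which enters through the shared estimate of spread, and 95 and 67 without bLF replicate 3. Without LPS+bLF replicate 1 the higher count was 342, without bLF replicate 2 it was 149, without LPS+bLF replicate 2 the counts were 149 and 85, and without LPS+bLF replicate 3 the lower count was 83. The limma fit on log2(FPKM + 1) and edgeR on the 6 libraries alone called 0 genes. DESeq2 on the 12 libraries called 2, both lower, Adamtsl4 (adjusted p = 8.89e-05) and Sox13 (adjusted p = 0.0309), and DESeq2 on the 6 libraries alone, a fit added after seeing the data, called 51, 24 higher and 27 lower. In 704 genes (5.13%) every LPS+bLF library was above every bLF library in FPKM, and in 944 (6.87%) every one was below. The median log2 fold change over all genes was 0.01 and 7146 of 13735 were above 0. Fold changes below are log2, LPS+bLF minus bLF, and none of them passed the adjusted test. The SE after ± was derived as the absolute log2 fold change divided by the square root of edgeR's F statistic.

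Among the 12 genes of smallest unadjusted p with a lower mean, Adamtsl4 (chr3:95676201-95687927 in GRCm38), a fibrillin-binding matrix protein, was at 35.3, 39.3 and 37.05 FPKM in bLF replicates 1 to 3 and 22.8, 18.3 and 22.8 FPKM in LPS+bLF replicates 1 to 3, a difference of -0.79 ± 0.14. The lowest bLF library stood well above the highest LPS+bLF library. Sox13, a transcription factor of the SoxD group, was at 46.1, 46.6 and 51.6 FPKM in bLF and 34.9, 22.2 and 27.8 FPKM in LPS+bLF (-0.75 ± 0.16). Adamts9, a secreted protease that cleaves proteoglycans, was at 3.11, 4.11 and 3.77 FPKM in bLF and 1.68, 1.03 and 1.91 FPKM in LPS+bLF (-1.23 ± 0.28). Smad6, an inhibitor of BMP signalling, was at 125, 123 and 142 FPKM in bLF and 93.05, 76.4 and 79.2 FPKM in LPS+bLF (-0.62 ± 0.17). In each of these the groups did not overlap and LPS+bLF replicate 2 was the lowest library. Klf15, Tsc22d3, Hspb1 and Per2, also among the 12 lowest-p genes of this direction, are described with their groups. The remaining 4, Sorbs3, an adaptor of focal adhesions, Ankrd33b, Nr6a1, an orphan nuclear receptor, and Ahsa2, a relative of the HSP90 co-chaperone Ahsa1, differed by -0.73, -0.74, -0.61 and -1.04, again without overlap.

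Among the 12 genes of smallest p with a higher mean, Serpinb1a (chr13:32842092-32853206 in GRCm38), an inhibitor of neutrophil serine proteases, was at 6.31, 4.85 and 5.55 FPKM in bLF and 8.27, 13.2 and 10.98 FPKM in LPS+bLF (0.99 ± 0.24). Ms4a7, a membrane protein of macrophages, was at 1.64, 0.94 and 1.34 FPKM in bLF and 2.78, 2.55 and 3.61 FPKM in LPS+bLF (1.21 ± 0.30). Bcl2a1d, an anti-apoptotic protein of leukocytes, was at 8.01, 11.4 and 10.5 FPKM in bLF and 18.9, 17.2 and 18.6 FPKM in LPS+bLF (0.89 ± 0.22), and its close copies in the genome make its share of reads uncertain. The groups did not overlap in any of the 3, and LPS+bLF replicate 1 was the lowest of its group for Serpinb1a only. Clec12a and Siglece, inhibitory receptors of myeloid cells, were at 8.17, 8.31 and 6.04 FPKM and 8.81, 7.67 and 7.60 FPKM in bLF. In LPS+bLF they were at 15.2, 11.9 and 13.4 FPKM and 11.9, 13.3 and 15.3 FPKM. S100a4, a calcium-binding protein of motile cells, was at 83.9, 129 and 111 FPKM in bLF and 211, 180.5 and 217 FPKM in LPS+bLF (0.92 ± 0.25). The lowest LPS+bLF library was above the highest bLF library in each. Map4k1, a kinase of blood cells, Snx20, a sorting nexin, Coro1a, an actin-binding protein of leukocytes, Slamf9, a receptor of the SLAM family, H2-Oa of the MHC class II pathway and Cyth4, an exchange factor for ARF GTPases, complete the 12, at 1.11, 0.87, 0.92, 1.02, 1.62 and 0.67. Coro1a and Map4k1 were highest in LPS+bLF replicate 2, and Coro1a was at 0.64 without it.

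**Figure D1:**
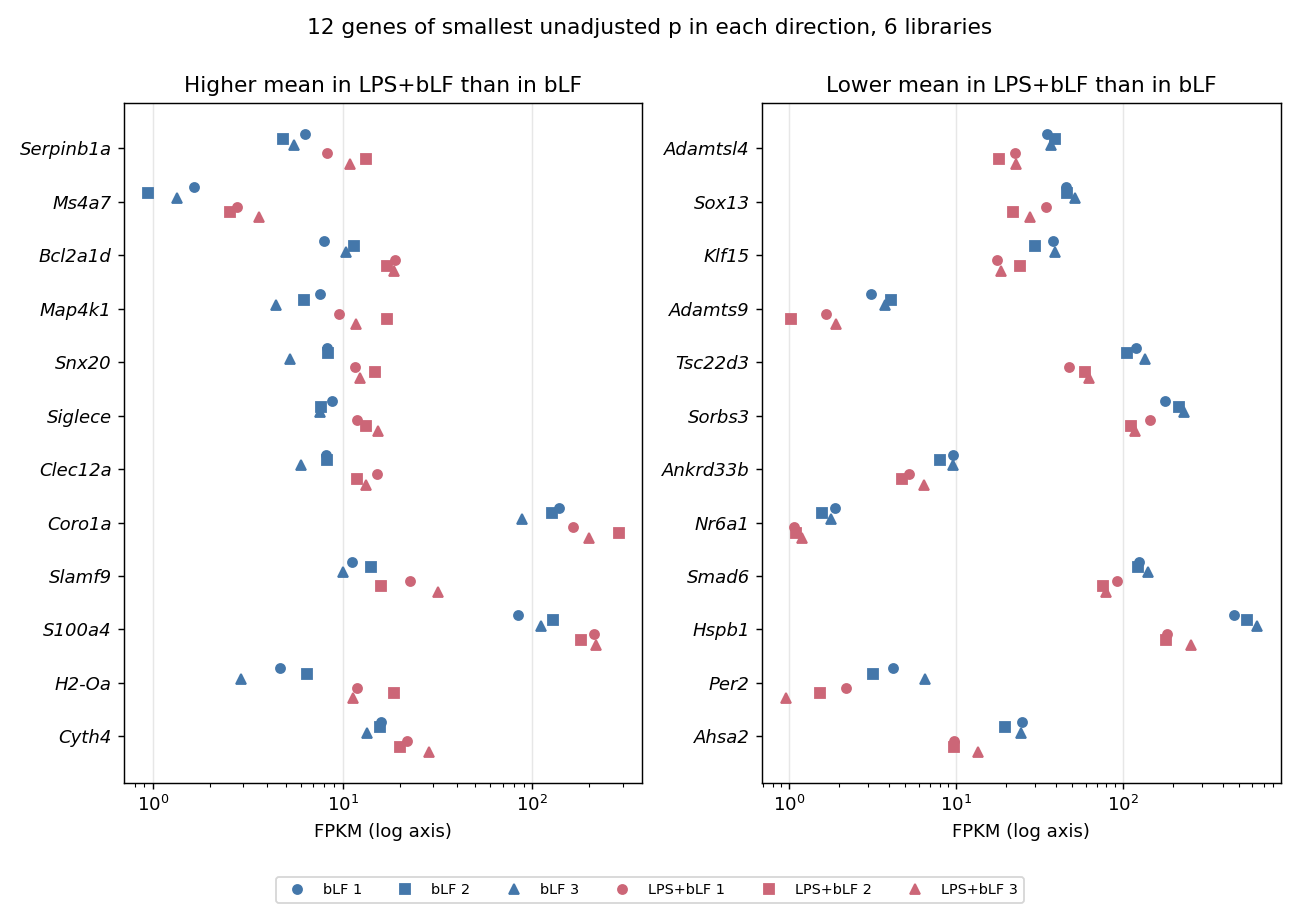
FPKM (log axis) of the 12 genes of smallest unadjusted p in each direction, with 1 point per library, blue for bLF and red for LPS+bLF and a shape per replicate number. In all 24 genes the 3 red points lie to one side of the 3 blue points, although none passed the adjusted test. They were chosen by their p in this same comparison, which favours such separation. Over all genes 5.13% were above and 6.87% below in this way.

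Heat shock chaperones had lower means in LPS+bLF than in bLF. These proteins fold and refold others. Hspa1a, Hspa1b and Hspa8 belong to HSP70, Hsp90aa1 and Hsp90ab1 to HSP90, Dnaja1 and Dnajb1 are HSP70 partners, Hsph1 is a nucleotide exchange factor, Hspb1 a small heat shock protein and Bag3 links HSP70 to small heat shock proteins. Of the 24 genes of the HSP70, HSP90 and unfolded protein response list, all tested, 21 were lower, 5 of them at an unadjusted p under 0.05, and 10 had no overlap, all below. Over all genes 6.87% were below without overlap, and 1.02% were lower at an unadjusted p under 0.05. The median was -0.31, against 0.01 over all genes. With 1 library of the 12 left out, this median lay between -0.41 and -0.28.

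Heat shock genes carry heat shock elements, inverted repeats of GAA, in their promoters. Upstream sequences (250 bases before the RefSeq start, GRCm38.p6) are shown for Hspb1 and Hspa1b, because these genes had the lowest p and the largest difference of the list. Capitals mark GAANNTTC or TTCNNGAA, each of which reads the same on both strands.
Hspb1 (chr5:135887669-135887918, plus strand): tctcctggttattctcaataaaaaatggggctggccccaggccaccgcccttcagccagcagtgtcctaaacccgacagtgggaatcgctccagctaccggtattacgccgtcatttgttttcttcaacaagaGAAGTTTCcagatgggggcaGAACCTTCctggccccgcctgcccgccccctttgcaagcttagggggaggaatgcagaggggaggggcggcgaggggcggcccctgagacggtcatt
Hspa1b (chr17:34959239-34959488, minus strand): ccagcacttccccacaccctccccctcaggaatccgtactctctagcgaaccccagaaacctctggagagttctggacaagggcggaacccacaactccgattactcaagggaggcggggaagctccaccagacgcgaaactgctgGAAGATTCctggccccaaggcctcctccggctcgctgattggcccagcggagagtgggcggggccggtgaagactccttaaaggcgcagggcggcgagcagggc
Hspb1 holds 2 matches, which begin 117 and 97 bases before the start, and Hspa1b holds 1, at 104 bases. A match is present in 7 of the 19 list members with a promoter in the RefSeq table (36.8%) and in 1340 of 10930 tested genes with one (12.3%).

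Hspb1 was at 464, 556 and 638 FPKM in bLF and 184, 183 and 256 FPKM in LPS+bLF (-1.39 ± 0.40). In control it was at 243, 364 and 315 FPKM and in LPS at 239.7, 209 and 663 FPKM, so that 5 of these 6 libraries were below every bLF library. Bag3 was at 60.3, 51.4 and 55.9 FPKM in bLF and 31.5, 34.7 and 41.7 FPKM in LPS+bLF (-0.60 ± 0.20). Dnaja1 was at 160.0, 166 and 169.8 FPKM in bLF and 80.5, 81.96 and 124 FPKM in LPS+bLF (-0.77 ± 0.27). In each, all bLF libraries were above all LPS+bLF libraries, and LPS+bLF replicate 3 was the highest of its group. Hspa8, the constitutive HSP70, was at 1269.7, 1124 and 1315 FPKM in bLF and 716, 682 and 873 FPKM in LPS+bLF (-0.69 ± 0.27). Hsph1 and Hspa1b, chosen after their values were seen, differed more. Hsph1 was at 33.3, 27.8 and 35.1 FPKM in bLF and 10.1, 8.56 and 14.9 FPKM in LPS+bLF (-1.49 ± 0.66). Hspa1b was at 42.8, 40.8 and 44.8 FPKM in bLF and 5.36, 3.16 and 13.99 FPKM in LPS+bLF (-2.49 ± 1.17), and its near-identical copy Hspa1a, between which reads cannot be divided with certainty, differed by -2.39. The bLF libraries lay close together and the LPS+bLF libraries spread over a wider range. In the libraries without lactoferrin, Hspa1b was at 8.45, 41.3 and 10.6 FPKM in control and 1.04, 7.50 and 69.05 FPKM in LPS. Control replicate 2 and LPS replicate 3 thus reached the bLF levels or more, while the other 4 lay at the LPS+bLF levels or below. Some unfolded protein response members of the list differed less, with Hspa5 at -0.23 ± 0.19, Hsp90b1 at 0.03 ± 0.24, Pdia6 at 0.04 ± 0.21 and Atf4 at -0.02 ± 0.22, chosen after their values were seen. Hsp90b1 and Pdia6 are among the 3 of 24 list members that were higher.

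Genes that glucocorticoids induce were also lower. Of 20 listed genes, all tested, 15 were lower, 5 at an unadjusted p under 0.05, 10 were below without overlap and none was above without overlap. The shares over all genes were 6.87% below and 5.13% above without overlap, and 1.02% lower at that p. The median was -0.44, and -0.61 to -0.26 with 1 library left out. Klf15 and Klf9, transcription factors, Tsc22d3 (GILZ), which restrains NF-kB and AP-1, Errfi1, an inhibitor of EGF receptors, and Per1 of the clock were the 5. Klf15 was at 38.03, 29.7 and 39.3 FPKM in bLF and 17.6, 24.1 and 18.6 FPKM in LPS+bLF (-0.82 ± 0.18). Tsc22d3 was at 121, 107 and 136 FPKM in bLF and 47.97, 59.8 and 63.3 FPKM in LPS+bLF (-1.09 ± 0.27). Errfi1 was at 38.03, 30.8 and 44.4 FPKM in bLF and 26.4, 23.3 and 30.7 FPKM in LPS+bLF (-0.47 ± 0.19). The bLF libraries were higher than the LPS+bLF libraries in each, by a wide gap in Tsc22d3 and by less than 0.1 FPKM in Errfi1. The metal-binding genes Mt1 and Mt2, also on this list and chosen after their values were seen, were at 0.86 ± 1.06 and 1.61 ± 1.17 and overlapped between groups. Fkbp5, chosen in the same way, was at 3.19, 3.66 and 5.51 FPKM in bLF and 1.40, 2.68 and 1.93 FPKM in LPS+bLF (-1.01 ± 0.96). In the LPS libraries without lactoferrin Fkbp5 was at 35.3, 2.16 and 1.85 FPKM, so that replicate 1 stood far above the other two, and the list's median of 0.77 in LPS versus control rests on a group that includes it.

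Clock genes also had lower means in LPS+bLF for the most part. In the circadian loop, Clock and Arntl drive the Per and Cry repressors and the output genes Dbp, Tef, Hlf and Ciart, and Nr1d1 and Nr1d2 repress Arntl. Of 18 genes, all tested, 14 were lower, 6 at an unadjusted p under 0.05, 7 were below and 1 above without overlap, and the median was -0.31. Among all genes 6.87% were below and 5.13% above without overlap, and 1.02% were lower at that p. Per2 was at 4.23, 3.18 and 6.52 FPKM in bLF and 2.19, 1.53 and 0.96 FPKM in LPS+bLF (-1.56 ± 0.45). Per1 was at 32.7, 28.6 and 34.7 FPKM in bLF and 16.2, 17.2 and 18.9 FPKM in LPS+bLF (-0.84 ± 0.31). Ciart was at 66.01, 59.2 and 47.9 FPKM in bLF and 38.6, 31.7 and 45.8 FPKM in LPS+bLF (-0.55 ± 0.17). These 3 did not overlap, while Per3, at -0.63 ± 0.24, did. Hlf, Cry2, Dbp, Nr1d1 and Clock, chosen after their values were seen, were at -1.44 ± 0.56, -0.34 ± 0.15, -0.65 ± 0.44, -0.23 ± 0.44 and -0.03 ± 0.18. Arntl, which the loop places opposite to Per and Dbp, was at 1.49, 2.51 and 0.43 FPKM in bLF and 2.20, 1.89 and 2.14 FPKM in LPS+bLF (0.51 ± 0.58). The time of day at which lungs were taken is not given in the sources used here.

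Clock and Arntl bind the E-box CACGTG, which reads the same on both strands. Upstream sequences of Klf15 and Ciart are shown because they were the lowest-p gene of the glucocorticoid list and the lowest-p clock gene with an entry in the table, and capitals mark CACGTG.
Klf15 (chr6:90462326-90462575, plus strand): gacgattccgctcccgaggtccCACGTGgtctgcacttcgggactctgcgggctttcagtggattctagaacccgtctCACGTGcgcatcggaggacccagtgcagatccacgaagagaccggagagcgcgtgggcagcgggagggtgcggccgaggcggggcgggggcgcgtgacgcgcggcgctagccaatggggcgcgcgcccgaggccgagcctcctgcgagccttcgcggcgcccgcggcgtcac
Ciart (chr3:95882229-95882478, minus strand): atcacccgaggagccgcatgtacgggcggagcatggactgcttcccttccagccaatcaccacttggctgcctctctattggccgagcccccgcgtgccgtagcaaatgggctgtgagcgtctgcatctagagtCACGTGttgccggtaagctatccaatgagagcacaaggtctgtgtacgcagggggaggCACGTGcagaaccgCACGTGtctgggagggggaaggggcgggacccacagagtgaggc
The matches begin 228 and 172 bases before the start in Klf15 and 116, 58 and 44 bases before it in Ciart. CACGTG is present in 5 of 15 clock genes with a promoter entry (33.3%), 5 of 17 glucocorticoid-induced genes (29.4%) and 1030 of 10930 tested genes (9.42%). It is also present in 3 of 19 heat shock list genes (15.8%) and in 3 of 13 cholesterol synthesis genes (23.1%). The cholesterol synthesis genes, described next, mostly had higher means in LPS+bLF, so the motif was not particular to lists that were lower.

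Genes of cholesterol synthesis had higher means in LPS+bLF. Hmgcs1, Mvd, Fdps, Fdft1 and Cyp51 are consecutive or later enzymes of the route from acetyl units to sterols, which SREBP2 controls. Of 21 listed genes 20 were tested, 18 were higher, 5 at an unadjusted p under 0.05, 7 were above and none below without overlap, and the median was 0.40 (0.35 to 0.49 with 1 library left out). Among all genes 5.13% were above without overlap, and 1.65% were higher at that p. Fdft1, squalene synthase, was at 26.4, 23.6 and 23.8 FPKM in bLF and 34.2, 66.2 and 47.1 FPKM in LPS+bLF (1.04 ± 0.33). Cyp51, a sterol demethylase, was at 7.74, 6.81 and 7.95 FPKM in bLF and 11.2, 12.1 and 13.7 FPKM in LPS+bLF (0.75 ± 0.24). Mvd, the mevalonate decarboxylase, was at 15.3, 15.2 and 16.9 FPKM in bLF and 22.3, 21.9 and 26.2 FPKM in LPS+bLF (0.60 ± 0.20). The bLF libraries lay within a narrow range in each and below every LPS+bLF library. Fdps was at 0.51 ± 0.21, and Hmgcs1, chosen after its values were seen, at 0.67 ± 0.27. Srebf2 itself was at -0.01 ± 0.34. Fdft1 was at 0.73 without LPS+bLF replicate 2, its highest library. The control libraries, at 50.8, 24.3 and 27.7 FPKM of Fdft1, spread over both groups. For the whole list, the mean log2(FPKM + 1) was 3.58, 3.47 and 3.61 in bLF and 3.92, 3.93 and 3.84 in LPS+bLF. It was 3.86, 3.65 and 3.83 in control, so that every control library was above every bLF library. In LPS it was 3.20, 3.97 and 3.58. Hmgcs1 is shown because its upstream sequence is the only one of the list to hold the sterol element TCACNCCAC (capitals; searched on both strands), found in 1 of 13 members with an entry (7.69%) and in 130 of 10930 tested genes (1.19%).
Hmgcs1 (chr13:119690101-119690350, plus strand): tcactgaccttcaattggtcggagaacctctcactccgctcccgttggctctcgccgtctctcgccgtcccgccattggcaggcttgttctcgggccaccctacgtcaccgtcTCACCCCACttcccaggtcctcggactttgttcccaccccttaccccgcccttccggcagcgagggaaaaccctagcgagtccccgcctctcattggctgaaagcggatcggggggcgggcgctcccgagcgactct

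**Figure D2:**
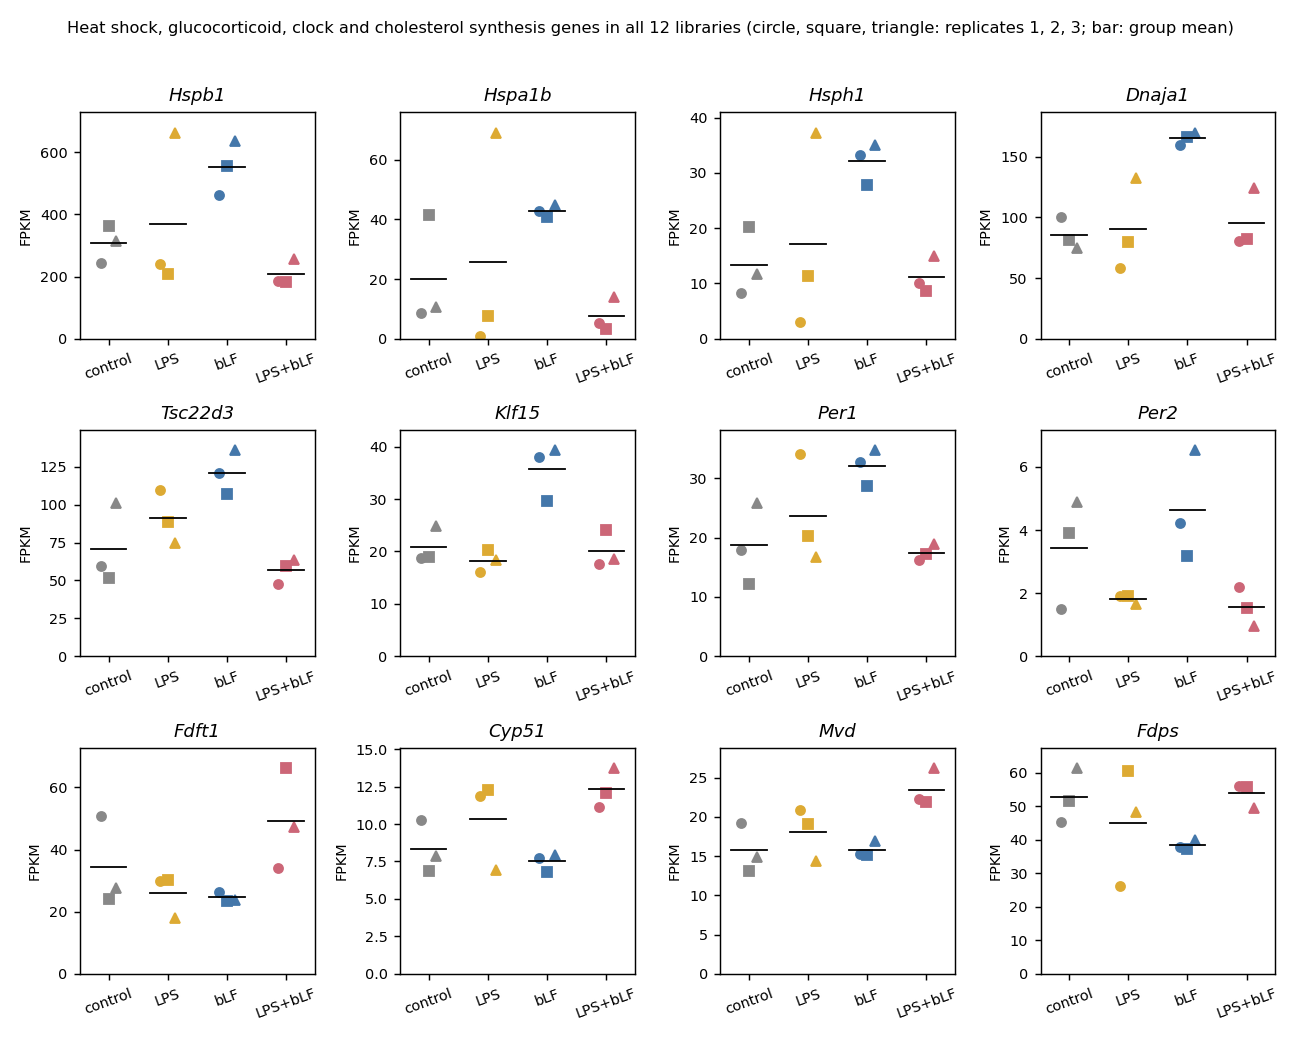
FPKM of 4 heat shock, 2 glucocorticoid-induced, 2 period and 4 cholesterol synthesis genes in the 12 libraries, by group, with a point per library, its shape giving the replicate number, and a bar at the group mean. The bLF points lie above the LPS+bLF points in the first 8 genes and below them in the last 4. The genes drawn are a selection, with Hsph1 and Hspa1b chosen after their values were seen. Members of these lists that overlapped between groups, such as Mt1, Mt2 and Per3, are not drawn.

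Most listed genes of monocytes, of the phagocyte oxidase and of MHC class II had higher means in LPS+bLF. Among all genes 5.13% were above without overlap, and 1.65% were higher at an unadjusted p under 0.05. The same shares stand beside the oxidase, class II, lymphocyte and dendritic cell counts that follow. Of 30 listed monocyte and interstitial macrophage genes 29 were tested, 19 were higher, 5 at an unadjusted p under 0.05, 8 were above and none below without overlap, and the median was 0.39. Besides Ms4a7 these were Ccr2, the receptor that brings monocytes out of the marrow, Aif1, an actin-binding protein of macrophages, and Cx3cr1, the fractalkine receptor, with C1qc of complement as the fifth. Ccr2 was at 3.54, 4.14 and 3.88 FPKM in bLF and 8.73, 5.16 and 7.52 FPKM in LPS+bLF (0.91 ± 0.30). Aif1 was at 16.6, 18.3 and 9.65 FPKM in bLF and 26.8, 53.6 and 33.4 FPKM in LPS+bLF (1.35 ± 0.45). Cx3cr1 was at 1.09, 1.19 and 0.85 FPKM in bLF and 2.08, 1.72 and 2.02 FPKM in LPS+bLF (0.92 ± 0.37). The groups did not overlap in these, and replicate 1 was the highest for Ccr2 and Cx3cr1 and replicate 2 for Aif1. General monocyte markers chosen after their values were seen did not differ in the same way, with Csf1r at -0.06 ± 0.20, Cd68 at -0.06 ± 0.39 and Ly6c2 at -0.19 ± 0.39. The summed FPKM of the list was 1638 to 2096 in bLF and 1804 to 3042 in LPS+bLF, with overlap, and its median was 0.19 to 0.44 with 1 library left out.

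In the phagocyte oxidase and Fc receptor list, 13 of 16 tested genes were higher, 3 at an unadjusted p under 0.05, 7 were above without overlap and the median was 0.30. Ncf1 and Cybb are subunits of the NADPH oxidase. Ncf1 was at 12.8, 14.02 and 13.4 FPKM in bLF and 19.4, 22.5 and 22.9 FPKM in LPS+bLF (0.72 ± 0.22). Cybb was at 4.38, 4.47 and 5.30 FPKM in bLF and 7.06, 7.02 and 5.87 FPKM in LPS+bLF (0.52 ± 0.23). Fcgr2b, the inhibitory Fc receptor, was at 0.63 ± 0.25 and overlapped.

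MHC class II genes had a median of 0.56 over 13 tested of 14 listed, with 12 higher, 2 at an unadjusted p under 0.05 and 7 above without overlap. H2-Oa and H2-Ob form the H2-O dimer, which restrains peptide loading by H2-DM in B cells and some dendritic cells. H2-Oa was at 4.65, 6.46 and 2.93 FPKM in bLF and 11.9, 18.6 and 11.3 FPKM in LPS+bLF (1.62 ± 0.43). H2-Ob was at 1.81, 3.57 and 1.25 FPKM in LPS+bLF, and every bLF library was lower. Both were highest in LPS+bLF replicate 2. The presenting chain H2-Aa, chosen after its values were seen, was at 557, 696 and 634 FPKM in bLF and 1198, 805 and 921 FPKM in LPS+bLF (0.65 ± 0.48), and was highest in replicate 1. Ctss, the protease that trims the invariant chain, was at 82.96, 97.9 and 106 FPKM in bLF and 153, 121 and 121 FPKM in LPS+bLF (0.48 ± 0.23), without overlap. The summed FPKM of the class II list was 3434 to 4348 in bLF and 4369 to 6061 in LPS+bLF, and its median stayed within 0.40 to 0.57 with 1 library left out.

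B and T cell genes were also higher, and here 1 library stood apart. Of 18 tested B cell genes 17 were higher, 6 at an unadjusted p under 0.05 and 4 above without overlap, with a median of 1.06 that was 0.41 without LPS+bLF replicate 2. Their summed FPKM was 166 to 344 in bLF and 331 to 789 in LPS+bLF, and none of the tested genes was at 0 in all 6 libraries. Cd79a, part of the B cell receptor, was at 146, 137 and 55.8 FPKM in bLF and 182, 447 and 169.9 FPKM in LPS+bLF (1.29 ± 0.54), and 0.65 without that library. Cd79b, its partner, was at 25.8, 24.96 and 9.55 FPKM in bLF and 34.6, 63.1 and 33.2 FPKM in LPS+bLF (1.16 ± 0.36), and 0.76 without it. Cd72, an inhibitory co-receptor, was at 9.07, 14.3 and 7.22 FPKM in bLF and 18.1, 40.4 and 21.7 FPKM in LPS+bLF (1.42 ± 0.49). These 3 did not overlap, with bLF replicate 3 the lowest and LPS+bLF replicate 2 the highest library in each. T cell genes had 17 of 19 tested members higher, 4 at an unadjusted p under 0.05, 4 above without overlap, and a median of 0.62, or 0.19 without LPS+bLF replicate 2. Their sum was 66.8 to 95.7 in bLF and 96.9 to 196 in LPS+bLF. Cd3d, of the T cell receptor complex, was at 5.67, 10.5 and 4.50 FPKM in bLF and 9.64, 19.9 and 13.8 FPKM in LPS+bLF (1.05 ± 0.33), with overlap, and at 0.65 without LPS+bLF replicate 2. Dendritic cell genes had a median of 0.55 over 17 tested genes, or 0.13 without that library, with 13 higher, 3 at an unadjusted p under 0.05 and 5 above without overlap. Lymphoid chemokines were high in the same library, as Ccl19 was at 3.24, 1.13 and 2.28 FPKM in bLF and 1.51, 68.3 and 2.32 FPKM in LPS+bLF, a difference of 3.52 that was -0.16 without it. Ly6d, used as a marker of plasmacytoid precursors and also made by squamous epithelium, was at 5.39, 3.95 and 3.14 FPKM in bLF and 6.67, 10.4 and 71.3 FPKM in LPS+bLF, and so was high in the library that is high in squamous genes. Its difference of 2.86 ± 0.99 was 1.07 without LPS+bLF replicate 3.

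**Figure D3:**
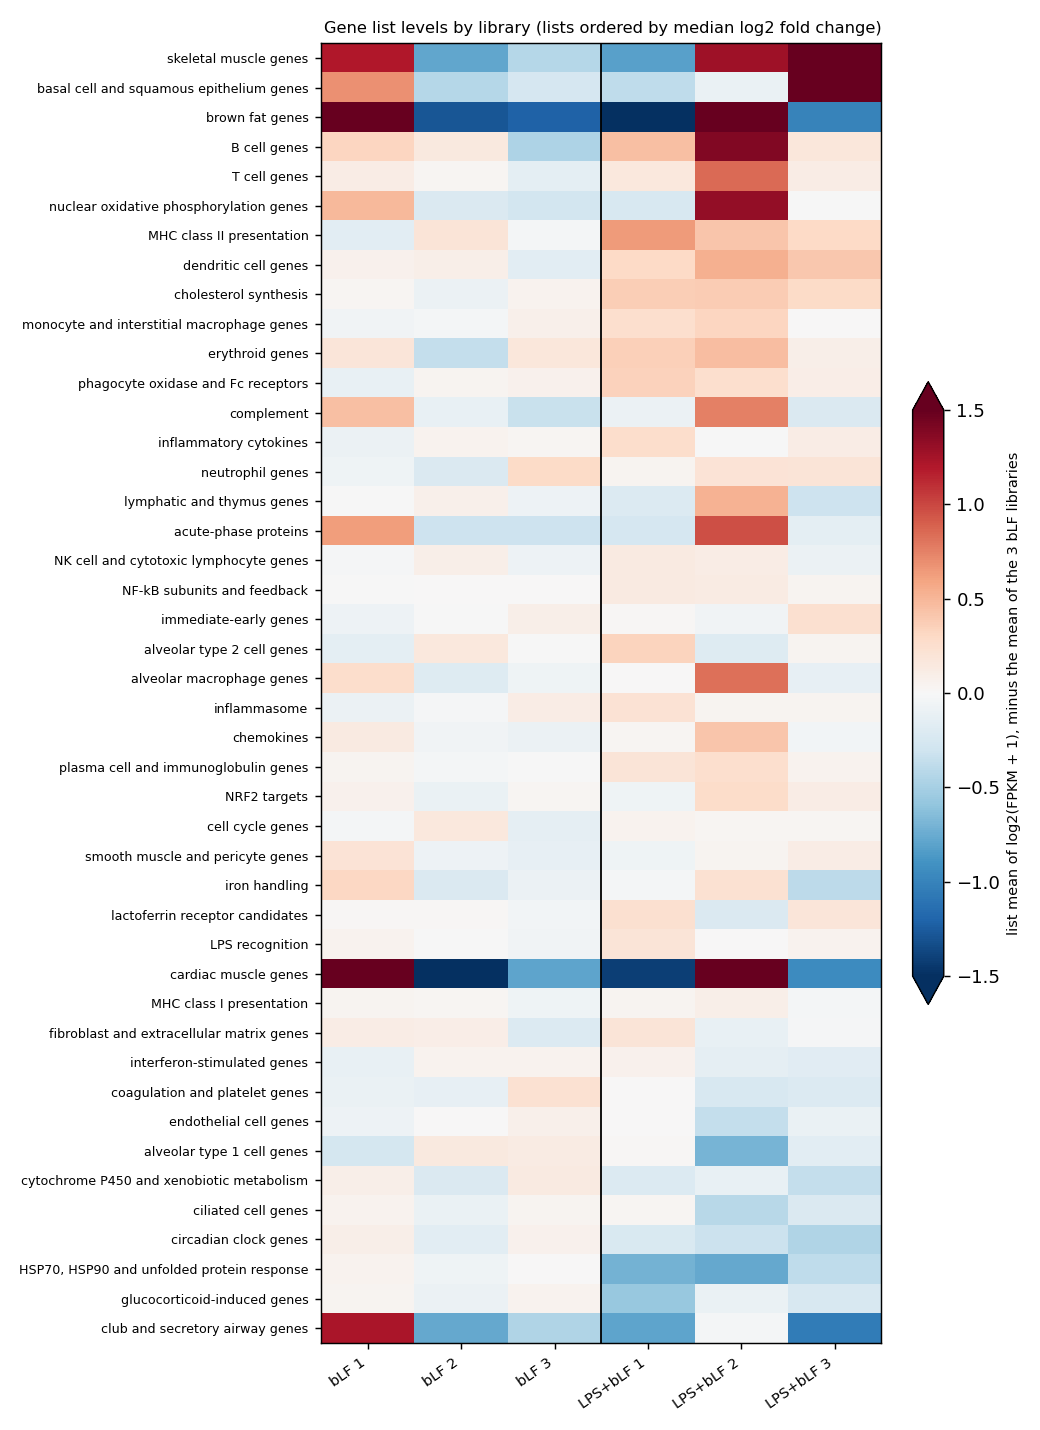
Level of each of the 44 gene lists in the 6 libraries, as the list's mean log2(FPKM + 1) minus the mean of the 3 bLF libraries; red is higher and blue lower, the scale ends at 1.5 either way, and lists run from the highest to the lowest median log2 fold change. Brown fat and cardiac genes stand out in bLF 1 and LPS+bLF 2, skeletal muscle and squamous genes in LPS+bLF 3, and the HSP70 and HSP90 list is lower in all 3 LPS+bLF libraries.

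Of the receptors and first mediators of LPS, Tlr4, Ly96, Cd14, Lbp and Myd88 differed little, while some other members of their list had higher means. Over all genes 5.13% were above without overlap, and 1.65% were higher at an unadjusted p under 0.05. Of 18 tested LPS recognition genes 13 were higher, 2 at an unadjusted p under 0.05 and 4 above without overlap, with a median of 0.04. Tlr4 was at 1.10, 0.95 and 1.25 FPKM in bLF and 1.31, 0.85 and 1.15 FPKM in LPS+bLF (0.02 ± 0.24). Cd14 was at 10.7, 11.02 and 9.99 FPKM in bLF and 11.2, 9.64 and 6.49 FPKM in LPS+bLF (-0.19 ± 0.34). The groups overlapped in both, as they did for Ly96, Lbp and Myd88 at 0.08, -0.23 and -0.04. Tlr2, the receptor for bacterial lipoproteins, was at 3.81, 4.32 and 3.77 FPKM in bLF and 6.60, 5.04 and 6.77 FPKM in LPS+bLF (0.66 ± 0.22), and Ly86, the partner of Cd180, was at 0.90 ± 0.38, both without overlap. Ticam2, also on this list, was at 1.06, and 0.91 to 1.31 with 1 library left out. By limma on log2(FPKM + 5) it was at 0.06. Of the NF-kB list, median 0.15 over 19 genes, 14 were higher and 2 were at an unadjusted p under 0.05, Nfkbie, an inhibitor of NF-kB, at 0.83 ± 0.31 and the subunit Relb at 0.44 ± 0.20. The inhibitor Nfkbia was at 184, 158 and 162 FPKM in bLF and 136, 152 and 157 FPKM in LPS+bLF (-0.15 ± 0.41), lower without overlap, and the feedback enzyme Tnfaip3 was at 0.23 ± 0.20.

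Cytokine genes covered a wide range of levels. Tnf was at 0.47, 0.89 and 1.04 FPKM in bLF and 1.12, 1.33 and 0.78 FPKM in LPS+bLF (0.45 ± 0.72). Il1b was at 9.56, 11.96 and 18.8 FPKM in bLF and 12.5, 13.97 and 14.7 FPKM in LPS+bLF (0.05 ± 0.42). Both overlapped, and Il6 and Cxcl2 did not pass the filter, at no more than 0.27 and 0.41 FPKM in these 6 libraries. None of 13 tested cytokine genes was at an unadjusted p under 0.05, and their median was 0.22. Chemokines had a median of 0.12 over 25 genes, with 3 at an unadjusted p under 0.05, all higher, Ccl19, Ccl21a and Ccl22. Ccl22, a chemokine of dendritic cells and macrophages, was at 2.32, 3.94 and 2.08 FPKM in bLF and 4.23, 8.54 and 6.09 FPKM in LPS+bLF (1.22 ± 0.47), without overlap. Ccl2 and Cxcl1, which draw monocytes and neutrophils, were at -0.89 ± 1.01 and 0.24 ± 0.87. Among 14 tested acute-phase genes, with 10 higher and a median of 0.18, 1 was at an unadjusted p under 0.05. This was Lrg1, a leucine-rich glycoprotein, at 112, 87.6 and 104 FPKM in bLF and 146, 199.9 and 201 FPKM in LPS+bLF (0.88 ± 0.39). Saa3, serum amyloid of inflamed tissue, was at 48.8, 18.00 and 9.40 FPKM in bLF and 21.2, 236 and 54.4 FPKM in LPS+bLF (2.11 ± 1.62), and 0.60 without LPS+bLF replicate 2. It was highest, within each group, in the library with the most brown fat RNA. Lcn2, an iron-scavenging acute-phase protein, was at 0.20 ± 0.43 and overlapped.

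Neutrophil genes had a median of 0.20 over 19 tested members, 13 of them higher, none at an unadjusted p under 0.05 and none without overlap. S100a8 and S100a9, subunits of calprotectin, were at -0.27 ± 0.63 and 0.27 ± 0.67. Ltf, the mouse's own lactoferrin, was at 113, 1.44 and 3.33 FPKM in bLF and 2.94, 6.27 and 3.55 FPKM in LPS+bLF (-3.14 ± 1.56), with bLF replicate 1 alone standing apart, and was at 0.85 without it. NK cell and cytotoxic genes had a median of 0.16 over 16 members, none of them at an unadjusted p under 0.05 or without overlap, with Nkg7 at 0.20 ± 0.61 and Gzma at -0.09 ± 0.73. Interferon-stimulated genes were lower in 24 of 37 tested, with a median of -0.09 and none at an unadjusted p under 0.05. MHC class I genes had a median of 0.00 over 19, with the immunoproteasome subunit Psmb8 at 85.1, 106 and 83.5 FPKM in bLF and 110.4, 138 and 118 FPKM in LPS+bLF (0.45 ± 0.16) as the only one at an unadjusted p under 0.05. Of 12 tested inflammasome genes the adaptor Pycard, at 0.86 ± 0.32, was the only such one, and Tnc, a matrix glycoprotein, was the only such one of 34 fibroblast and matrix genes. Tnc was at 0.76, 1.46 and 0.91 FPKM in bLF and 3.01, 1.51 and 1.83 FPKM in LPS+bLF (1.03 ± 0.29), while Col1a1 of fibrillar collagen was at -0.20 ± 0.34. Alveolar macrophage genes had a median of 0.14 over 23, with 15 higher and none at an unadjusted p under 0.05. Iron handling genes, which include lactoferrin's relatives, had a median of 0.05 over 22, with the transferrin receptor Tfrc at 0.04 ± 0.28 and the iron exporter Slc40a1 at 0.15 ± 0.22. Of 11 tested lactoferrin receptor candidates, none at an unadjusted p under 0.05, Lrp1 was at -0.11 ± 0.19 and Itln1 at -0.16 ± 0.51. Hmox1, the haem oxygenase, was at -0.10 ± 0.65.

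Most listed genes of type 1, club, ciliated and endothelial cells had lower means in LPS+bLF, and none passed the test. Over all genes 6.87% were below without overlap. Alveolar type 1 genes were lower in 16 of 17 tested, with 1 below without overlap and a median of -0.21, or -0.06 without LPS+bLF replicate 2. Rtkn2, that gene, was at 42.4, 52.6 and 51.7 FPKM in bLF and 37.8, 23.2 and 31.6 FPKM in LPS+bLF (-0.63 ± 0.33). Club and secretory genes were lower in 17 of 18, with 5 below without overlap and a median of -0.61, or -0.16 without bLF replicate 1. Scgb1a1, the secretoglobin of club cells, was at 252232, 283821 and 331490.3 FPKM in bLF and 239473, 157596 and 143712 FPKM in LPS+bLF (-0.67 ± 0.75), while Scgb3a1 of larger airways was at 8565, 79.3 and 62.1 FPKM in bLF and 55.1, 656 and 40.3 FPKM in LPS+bLF. Scgb1a1 did not overlap, and Scgb3a1 was high in the libraries that are high in brown fat and cardiac genes. Ciliated cell genes were lower in 17 of 19, with a median of -0.29. None of these 3 lists held a gene at an unadjusted p under 0.05. Endothelial genes were lower in 16 of 24, with a median of -0.20, 3 below without overlap, and Ednrb, the endothelin receptor of capillaries, at -0.32 ± 0.15 and Pecam1 at -0.31 ± 0.16. Alveolar type 2 genes had a median of 0.14 over 21 and Sftpc was at -0.02 ± 0.46. Smooth muscle and pericyte genes had a median of 0.06 over 21, with Myh11 at -0.23 ± 0.21. Cytochrome P450 and related genes were lower in 23 of 33, with a median of -0.22 and Cyp2b10 at -0.70 ± 0.29. Cell cycle genes had a median of 0.08 over 31, none at an unadjusted p under 0.05.

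The other lists held few genes at an unadjusted p under 0.05. Complement genes were higher in 17 of 21 tested, with a median of 0.28. Cr2, the complement receptor of B and follicular dendritic cells, was at 0.63, 0.40 and 0.18 FPKM in bLF and 0.78, 3.51 and 0.50 FPKM in LPS+bLF (2.04 ± 0.72), C3ar1, the C3a receptor, at 0.72 ± 0.29 and C1qc at 0.47 ± 0.22. Without LPS+bLF replicate 2, the library with the highest B cell sum, Cr2 was at 0.67, C1qc at 0.19 and the complement median at 0.00. Immediate-early genes had a median of 0.14 over 23 tested, with Nr4a1, described below, as the only one at an unadjusted p under 0.05. NRF2 targets had a median of 0.08 over 19, coagulation and platelet genes -0.17 over 21, plasma cell and immunoglobulin genes 0.11 over 8 and erythroid genes 0.34 over 11, and none of these 4 lists held such a gene. Lymphatic and thymus genes had a median of 0.19 over 6, with the lymphoid chemokine Ccl21a, which has near-identical copies, at 1.10 ± 0.46. Without LPS+bLF replicate 2 these were at -0.39 and 0.29.

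Nuclear genes of oxidative phosphorylation were higher in 32 of 33, with a median of 0.61 that was -0.12 without LPS+bLF replicate 2. Ndufa4, a subunit of the respiratory chain, was at 994, 651 and 561 FPKM in bLF and 646, 1774 and 859 FPKM in LPS+bLF (0.62 ± 0.37), and 0.04 without that library. It was highest in the 2 libraries with the most brown fat RNA. The brown fat list itself had a median of 1.54 with all libraries and -5.23 without LPS+bLF replicate 2, the cardiac list 0.00 and -3.28. The skeletal muscle list, 14 of 14 higher and 7 at an unadjusted p under 0.05, went from 2.85 to 0.19 without LPS+bLF replicate 3, and the squamous list, 11 of 11 higher, from 1.77 to -0.62. Tnnc2, fast troponin C, was at 0.64, 0.51 and 0.00 FPKM in bLF and 0.00, 0.63 and 2971 FPKM in LPS+bLF, a single library in all.

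The LPS difference with lactoferrin was set beside the LPS difference without it, from the LPS and control libraries, which it does not share. The 2 differences do share the normalization and the estimate of spread. In LPS versus control edgeR also called 0 genes (0%), with a smallest adjusted p of 0.0840, 758 genes higher and 222 lower at an unadjusted p under 0.05. With 1 library left out these counts ran from 457 and 137 without control replicate 2 to 1557 and 770 without LPS replicate 3, and the higher count was also over 1.5 times lower without control replicate 3, at 492. The FPKM of those groups did not overlap in 550 genes (4%) above and 539 (3.92%) below. The lower count was 362 without control replicate 1. DESeq2 called 138 genes there. Across the 13735 genes, which are not independent replicates, Spearman's rho between the log2 fold changes was 0.23 and Pearson's r was 0.00. Of the 758 genes, 591 (78.0%) were higher with lactoferrin too, against 52.0% of all genes, with a median of 1.00 without lactoferrin, by which they were chosen, and 0.21 with it. Of the 222 lower genes 124 (55.9%) were lower with lactoferrin, against 6589 of all 13735, with medians of -0.65, which chose them, and -0.05. In reverse, of the 226 genes higher with lactoferrin, by which they were chosen, 163 (72.1%) were higher without it, against 45.8% of all genes. Of the 140 lower with lactoferrin, chosen likewise, 104 (74.3%) were lower without it, against 7438 of all 13735. The lists at an unadjusted p under 0.05 shared 73 higher genes, 32.3% of those with lactoferrin and 9.63% of those without, and 13 lower genes, 9.29% and 5.86%. Over all 13735 genes, 1.65% were higher and 1.02% lower at that p with lactoferrin. Without it 758 and 222 of the 13735 were.

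The test of the difference between the 2 LPS differences called 0 genes (0%) in edgeR, with a smallest adjusted p of 0.99998, 173 higher and 211 lower at an unadjusted p under 0.05, and 1 gene in DESeq2. With 1 library left out the higher count ran from 78 without LPS+bLF replicate 2 to 343 without LPS+bLF replicate 1, and the lower count from 125 without bLF replicate 3 to 486 without LPS replicate 3. The higher count was also 294 without bLF replicate 1, 271 without LPS replicate 3, and 92 and 81 without bLF replicates 2 and 3. The lower count was also 396 without LPS replicate 2, 127 without bLF replicate 2, and 136 and 134 without LPS+bLF replicates 2 and 3. The gene called by DESeq2 was Gm10499, a predicted gene, at -0.17 ± 0.20 with lactoferrin and 1.27 ± 0.20 without, an interaction of -1.44 ± 0.28 in edgeR. H2-Bl, an MHC class I gene, was at -0.14 ± 0.26 and 1.71 ± 0.27, and H2-T23 at -0.01 ± 0.17 and 0.96 ± 0.18. Reads of related MHC genes cannot be divided with certainty. Nr4a1, an immediate-early nuclear receptor, was at 11.3, 11.2 and 13.7 FPKM in bLF and 17.4, 20.5 and 18.5 FPKM in LPS+bLF, 0.67 ± 0.19 against -0.43 ± 0.19 without lactoferrin. Serpinb1a was at -0.35 ± 0.24 without lactoferrin, the only one of the 12 higher genes named above to be lower there.

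The 8 genes of smallest p higher in LPS versus control include genes of phagocytes and NK cells, and 6 of them were higher with lactoferrin. Ms4a7 was at 2.25 ± 0.30 without and 1.21 ± 0.30 with lactoferrin. Ctss was at 1.57 ± 0.24 and 0.48 ± 0.23. Bcl2a1b, an anti-apoptotic gene, was at 1.92 ± 0.28 and 0.80 ± 0.27. These 6, with Myo1f, a leukocyte myosin, Pik3r5, a PI3-kinase regulator, and Klra3, an NK receptor, at 0.40, 0.42 and 0.61 with lactoferrin, were chosen by their p without lactoferrin, which favours larger values on that side, and none of their interactions passed the adjusted test. Of the 8 lower genes 5 were lower with lactoferrin. Smad6 was at -0.65 ± 0.17 and -0.62 ± 0.17. The smooth muscle genes Myh11 and Cnn1 were at -1.22 ± 0.21 and -1.17 ± 0.28 without lactoferrin and -0.23 and -0.25 with it, and Asgr1, a galactose-binding receptor, was at -1.80 ± 0.34 and 0.05 ± 0.32. Ednrb had a lower mean on both sides, and Tsku and Lurap1 were at 0.20 and 0.43 with lactoferrin. Of the genes lower with lactoferrin, 10 of the 12 named were also lower in LPS versus control, 8 of them at -0.25 to -0.01. The exceptions were Hspb1 at 0.30 ± 0.39 and Tsc22d3 at 0.40 ± 0.27.

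Among lists, the LPS difference without lactoferrin had a larger median for monocyte and interstitial macrophage genes (1.12 against 0.39) and phagocyte oxidase genes (0.87 against 0.30), and both stood near those values without LPS replicate 1, at 0.95 and 0.81. It was also larger for MHC class I genes, at 0.57 against 0.00, and 0.63 without that library. For other lists LPS replicate 1 stood apart from the other two. The neutrophil median was 1.51 against 0.20, but -0.17 without LPS replicate 1, and the cell cycle median was 0.79 against 0.08, but 0.35 without it. NK cell genes were low in that library, with a mean log2(FPKM + 1) of 0.83 against 3.25 and 3.22 in the other LPS libraries and 1.89 to 2.09 in control. Their median was 1.06 against 0.16, and 1.55 without it. The glucocorticoid-induced list, at 0.77 against -0.44, was at 0.08 without LPS replicate 1. B cell genes, at -0.38 against 1.06, were at -0.07 without it. Cholesterol synthesis genes, at -0.19 against 0.40, were at -0.01 without it. The HSP70 and HSP90 list, at 0.14 against -0.31, was at -0.26 without LPS replicate 3. MHC class II genes were at 0.44 against 0.56, and at 0.94 without LPS replicate 1 and 0.24 without LPS replicate 3. Clock genes were at -0.17 against -0.31, and at -0.35 and -0.03 without those libraries. These differences of list medians were not tested.

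**Figure D4:**
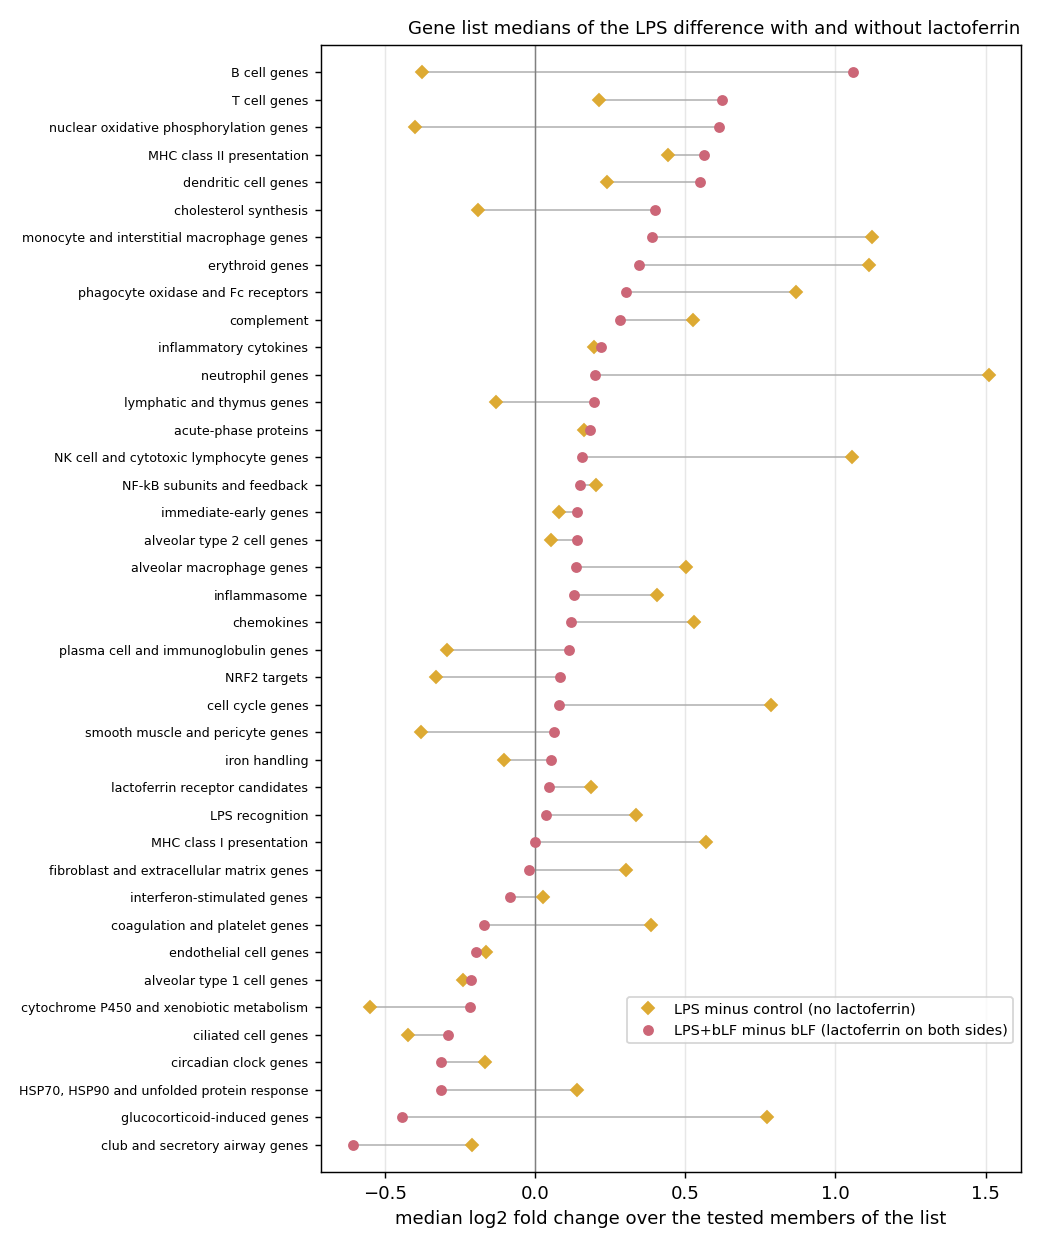
Median log2 fold change over the tested members of 40 gene lists in LPS minus control (diamonds) and LPS+bLF minus bLF (circles), joined by a line; the 4 lists of fat, heart and skeletal muscle and squamous epithelium are left out. Circles lie nearer to 0 than diamonds for neutrophil, NK, monocyte, phagocyte oxidase and cell cycle genes, and on the other side of 0 for glucocorticoid-induced, heat shock, cholesterol synthesis and B cell genes. Without LPS replicate 1 the diamonds of the neutrophil, glucocorticoid-induced and B cell lists would lie at -0.17, 0.08 and -0.07, and without LPS replicate 3 that of the heat shock list at -0.26. Those of the cell cycle and cholesterol synthesis lists would lie at 0.35 and -0.01 without LPS replicate 1.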

How the data were processed

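Polyadenylated RNA of lung from 12 mice, 3 per group, was sequenced. The authors deposited, per the file headers, 1 table per library with a gene ID, an expected count and an FPKM value for each gene. Per the submitters' processing notes HISAT2 2.1.0, RSEM 1.2.8 and mm10 were used, and their roles are not given there. The deposited expected counts were rounded to whole numbers, filtered at 0.5 FPKM in at least 3 of 12 libraries, scaled by TMM and fitted for all 4 groups with edgeR 4.0.16 (R 4.3.3), with Benjamini-Hochberg adjustment over all genes tested. The deposited FPKM values were used for levels and overlap. Promoters came from the RefSeq table of GRCm38.p6. Each library is 1 mouse.

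Genes were named by rule, as the 12 of smallest p per direction (mean of 1 FPKM or more), a panel, up to 4 of smallest p per list, the 8 of smallest p per direction in LPS versus control and the 4 per direction in the interaction. Some genes that met this rule are not reported here. The comparison, lists and panel were chosen with earlier results of these data known. On simulated data for LPS+bLF versus bLF over 13735 genes the fit recovered 14% of 100 genes changed by a log2 of 1 and 73% of 100 changed by 2. It also called 2 unchanged genes. The changed genes were drawn only from those above a minimum mean count, so recovery among genes of low count was not measured. Alternatives were other scalings, filters and thresholds, DESeq2 1.42.0, limma 3.58.1 with other pseudocounts, a robust fit, a replicate block, only these 6 libraries, and leaving libraries out.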

Additional observations from a re-analysis of the deposited data

How the results depend on the processing

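The count of 0 genes called in LPS+bLF versus bLF held under the scaling, filter, limma, robust and left-out-library alternatives, and was 2 with DESeq2 and 51 with DESeq2 on only these 6 libraries, a fit added after seeing the data. LPS versus control went from 0 called to 138 with DESeq2, to 2 and 3 with limma on log2(FPKM + 1) and log2(FPKM + 5), and to 0 to 25 with 1 library left out, the 25 without LPS replicate 1. The interaction had 1 call with DESeq2. The cause of these changes was not tested. With 1 library left out, 95 to 503 genes were higher and 67 to 347 lower at an unadjusted p under 0.05 in LPS+bLF versus bLF, against 226 and 140. Both were lowest with LPS+bLF replicates 2 and 3 left out together, an alternative added after seeing the data, at 23 and 24. Of 224 named genes 168, and of 44 list medians 22, kept their sign under every alternative run.

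The labels do not say whether the replicate numbers pair mice across groups. Over the 2000 genes of largest variance, deviations from the group means of same-numbered libraries correlated at -0.76, -0.65 and 0.18. No LPS+bLF library correlated best with its own number. Libraries high in genes of adjacent tissue can dominate such genes, so these values cannot settle whether the numbers pair the libraries. With the number as a replicate block 0 genes were called in LPS+bLF versus bLF, and 33 of 44 list medians were above 0 against 32 without the block. With 3 libraries per group, the biological coefficient of variation was 0.352 and the median SE of a log2 fold change was 0.28.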

Other observations

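Genes outside the lists gave further values for the same 6 libraries, chosen after their values were seen. They are among the 51 genes that DESeq2 called on these 6 libraries alone, a fit added after seeing the data, where edgeR and limma on the same 6 called 0. Cirbp, an RNA-binding protein known to be induced by cold, was at 41.7, 45.9 and 37.4 FPKM in bLF and 66.9, 68.5 and 65.3 FPKM in LPS+bLF (0.66 ± 0.49 in edgeR). Further chaperones and chaperone partners were on the lower side. Hspa4l, an HSP110 relative, was at -0.89 ± 0.38, Dnaja4, an HSP40, at -0.63 ± 0.39 and Cacybp, which binds calcyclin and HSP90, at -0.60 ± 0.28. Btk, a kinase of B and myeloid cells, was at 3.31, 3.15 and 2.55 FPKM in bLF and 5.37, 6.94 and 5.63 FPKM in LPS+bLF (1.02 ± 0.28). Fabp5, a fatty acid binding protein, was at 0.90 ± 0.37, Il10ra, the interleukin-10 receptor, at 0.69 ± 0.20, and Mcemp1, a mast cell and macrophage membrane protein, at 0.76 ± 0.35.

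In 26 genes the FPKM groups did not overlap in either LPS difference and pointed in opposite directions, 15 higher and 11 lower with lactoferrin, against 105 higher and 42 lower on both sides. Over all 13735 genes, 5.13% were above and 6.87% below without overlap with lactoferrin, and 4% and 3.92% without it. Whether these counts depart from what such shares alone would give was not tested. Sdhaf1, an assembly factor of succinate dehydrogenase, was at 21.7, 19.4 and 23.4 FPKM in bLF and 27.4, 36.02 and 28.1 FPKM in LPS+bLF, 0.54 ± 0.17 with and -0.30 without lactoferrin. Mcl1, a survival protein of the Bcl2 family, was at 93.4, 104 and 108 FPKM in bLF and 90.6, 81.2 and 90.5 FPKM in LPS+bLF, -0.20 ± 0.14 with and 0.32 without. Mrps14 and Mrpl20, proteins of the mitochondrial ribosome, were at 0.44 and 0.27 with lactoferrin and -0.26 and -0.17 without. None of the 26 passed the adjusted test of the difference between the 2.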
